A study of Arabidopsis thaliana with 2 samples.

Results

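The genes described here are the aldehyde dehydrogenase (ALDH) genes of Arabidopsis thaliana, taken as every gene whose symbol in the array's annotation starts with ALDH and a family number. Where a gene has several probe sets annotated to it alone, the brightest is used. The rule found 8 genes among 13356, each with 1 probe set, from 7 of the numbered families. The gene table holds 14 such symbols. The other 6, ALDH2B4, ALDH2B7, ALDH3H1, ALDH3I1, ALDH5F1 and ALDH12A1, have no named probe set here and were not analysed.

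Shoots of ecotype Col-0 (stock N1092) were grown on agar medium for about 2 weeks and taken with about 6 rosette leaves, at developmental stage 1.04. The NPA group grew with N-1-naphthylphthalamic acid, an inhibitor of polar auxin transport, dissolved in DMSO. The control group grew with an equal volume of DMSO alone. The labels give the NPA dose both as 10 uM and as 10 mM. Each group was measured on 1 Affymetrix ATH1 array, so no value has a replicate error, no test was possible, and every difference describes these 2 arrays.

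Aldehyde dehydrogenases oxidise aldehydes to carboxylic acids with NAD or NADP as the electron acceptor, by way of a catalytic cysteine. Plants use them to finish the breakdown of amino acids and polyamines, to make phenolic acids and NADPH, and to clear reactive aldehydes that form from membrane lipids under drought, salt or strong light. The families differ in substrate and in the compartment where the enzyme works. The compartments named below are background knowledge of the proteins and were not measured here.

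Genes of families 6, 7, 10 and 22 had higher signals with NPA, and those of families 2, 3 and 11 had similar signals on both arrays. ALDH7B4 was 2.54-fold higher with NPA and ALDH6B2 2.20-fold, followed by ALDH10A9 at 1.98-fold, ALDH10A8 at 1.77-fold and ALDH22A1 at 1.59-fold. ALDH11A3, ALDH2C4 and ALDH3F1 differed by less than 1.15-fold, and ALDH3F1 was the only member lower with NPA. All 8 genes were above the floor on both arrays. The floor is the 40th percentile of each array, a signal of 28.3 with DMSO and 27.9 with NPA, below which signals were not told apart.

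Of the 8 genes, 2 were higher with NPA by 2-fold or more and 0 were lower by as much. A gene is called measured here when it is above the floor on 1 array or both, and of 7753 such genes 3.75% were higher and 2.13% lower by this size. At 1.5-fold, 5 of the 8 were higher and 0 lower, where 11.2% of measured genes were higher and 10.6% lower. The median log2 ratio of NPA over DMSO was 0.75 for the 8 genes and -0.03 for all measured genes. Brighter genes passed these sizes more often. Among 3333 measured genes with a mean signal of at least 100, a limit chosen after the values were seen, 12.7% were higher and 13.1% lower by 1.5-fold, and 4.74% and 2.88% by 2-fold. Of the 7 ALDH genes that bright, 4 were higher by 1.5-fold, 2 by 2-fold and 0 lower by either size. The 8 genes were proposed with earlier results of these arrays known, so these counts are a description.

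**Figure D1:**
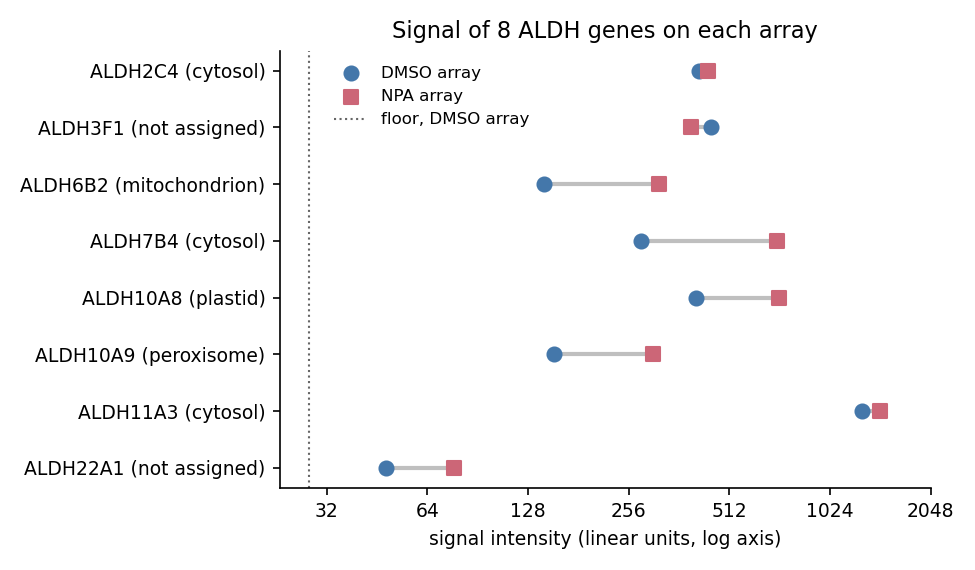
Signal intensity of the 8 ALDH genes on the DMSO array (circles) and the NPA array (squares), on a log axis, with 1 array per group and no error bars. The wide gaps belong to ALDH7B4, ALDH6B2, ALDH10A9 and ALDH10A8, while the points of ALDH2C4, ALDH3F1 and ALDH11A3 lie close together; the dotted line is the DMSO floor of 28.3.

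ALDH7B4 (AT1G54100) encodes the cytosolic member of family 7, also called antiquitin, whose transcript is known to accumulate under dehydration, salt and abscisic acid. Its signal was 280 on the DMSO array and 709 on the NPA array, a log2 ratio of 1.34. Of the 7753 measured genes, 136, ALDH7B4 included, had a log2 ratio as high, or 1.75%. It was the member furthest from 0 and stayed above 2-fold in all 9 other processing settings, with log2 ratios from 1.26 to 1.41. With 1 probe set far above the floor, a higher, lower or absent floor and other probe set choices could not move its ratio. In shoots measured in bulk, more RNA per cell cannot be told apart from more cells of a type that expresses the gene.

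ALDH6B2 (AT2G14170) encodes methylmalonate-semialdehyde dehydrogenase of the mitochondrion, which acts in the breakdown of valine. Its signal was 143 with DMSO and 315 with NPA, a log2 ratio of 1.14, and 224 measured genes, or 2.89%, were as high. It lay above 2-fold in 8 of 9 other settings, though a higher, lower or absent floor and other probe set choices again could not move its ratio. With the floor added to both signals the log2 ratio was 0.998, just under 2-fold.

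The family 10 enzymes are aminoaldehyde dehydrogenases of the betaine aldehyde dehydrogenase type, which oxidise aldehydes made from polyamines and choline. The paralogs work in different compartments, ALDH10A8 in plastids and ALDH10A9 in peroxisomes. ALDH10A8 (AT1G74920) had a signal of 406 with DMSO and 718 with NPA, a log2 ratio of 0.82. ALDH10A9 (AT3G48170) had 153 and 303.0, a log2 ratio of 0.99. Both paralogs were thus higher with NPA, and their ratios differed by 0.17. That gap is smaller than the SD of 0.21 over the log2 ratios of 18 hybridisation spike-in probe sets, which carry no biological difference. Those ratios ran from -0.61 to 0.20. Their SD does not include the spread between plants or RNA preparations, so it is not the full error of a plant gene's ratio. ALDH10A9 lay just below 2-fold and passed it only after median centring, at a log2 ratio of 1.01, while ALDH10A8 stayed between 0.78 and 0.92.

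ALDH22A1 (AT3G66658) is the only Arabidopsis gene of family 22, a plant family without an assigned substrate here. Its signal was 48.3 with DMSO and 76.9 with NPA, a log2 ratio of 0.67. The DMSO signal was 1.71 times the floor, the closest of the 8 genes to it, and the log2 ratio was 0.45 when the floor was added to both signals.

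The remaining genes gave ratios near 1. ALDH11A3 (AT2G24270) encodes the cytosolic non-phosphorylating glyceraldehyde-3-phosphate dehydrogenase, a source of NADPH. It had a signal of 1276 with DMSO and 1449 with NPA, a log2 ratio of 0.18, which came to 0.40 under quantile normalization and 0.42 under lowess centring. ALDH2C4 (AT3G24503), also known as REF1, oxidises coniferaldehyde and sinapaldehyde to ferulic and sinapic acid in the cytosol. It had 416 and 441, a log2 ratio of 0.08. ALDH3F1 (AT4G36250) belongs to family 3, whose members act on longer aliphatic aldehydes. It had 450 and 393, a log2 ratio of -0.20. The ratios of these 3 genes were no larger than the SD of the spike-ins, 0.21, apart from those 2 scalings of ALDH11A3.

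**Figure D2:**
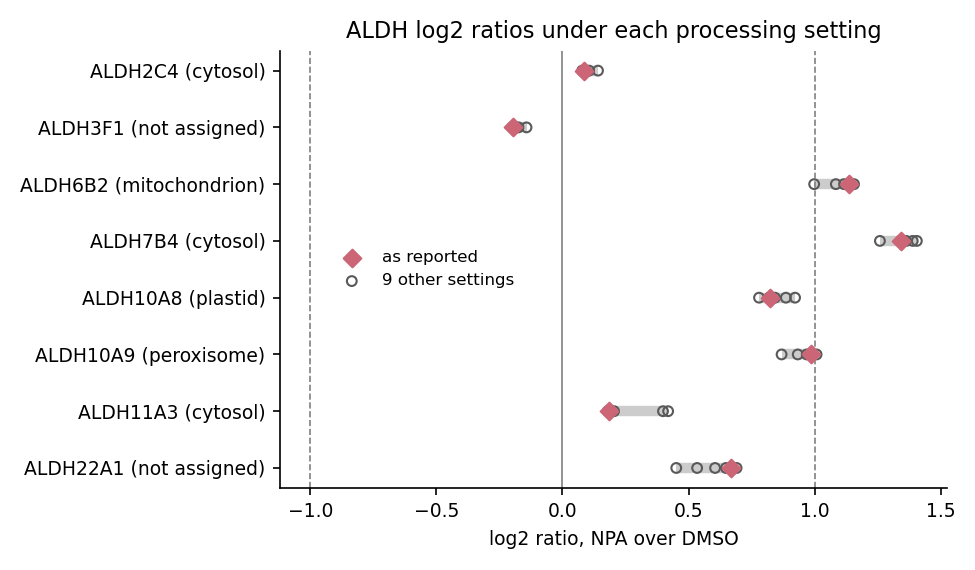
Log2 ratio of NPA over DMSO for each ALDH gene as reported (diamonds) and under 9 other processing settings (open circles), with dashed lines at 2-fold. The grey bars span all settings, from 1.26 to 1.41 for ALDH7B4 and from -0.20 to -0.14 for ALDH3F1, and no gene crosses 0. A higher, lower or absent floor and the probe set choices could not move most of these values.

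By compartment, the cytosolic enzymes did not move as a group. Of the 3, ALDH7B4 had a log2 ratio of 1.34, while ALDH11A3 and ALDH2C4 had 0.18 and 0.08, a span of 1.26. The mitochondrial ALDH6B2, the peroxisomal ALDH10A9 and the plastid ALDH10A8 were each at least 1.5-fold higher with NPA, but every one of these compartments is represented by 1 gene. ALDH22A1 and ALDH3F1, for which no compartment was assigned, had 0.67 and -0.20. By family number, only family 10 has more than 1 measured gene. The number of genes is too small to separate family from compartment.

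**Figure D3:**
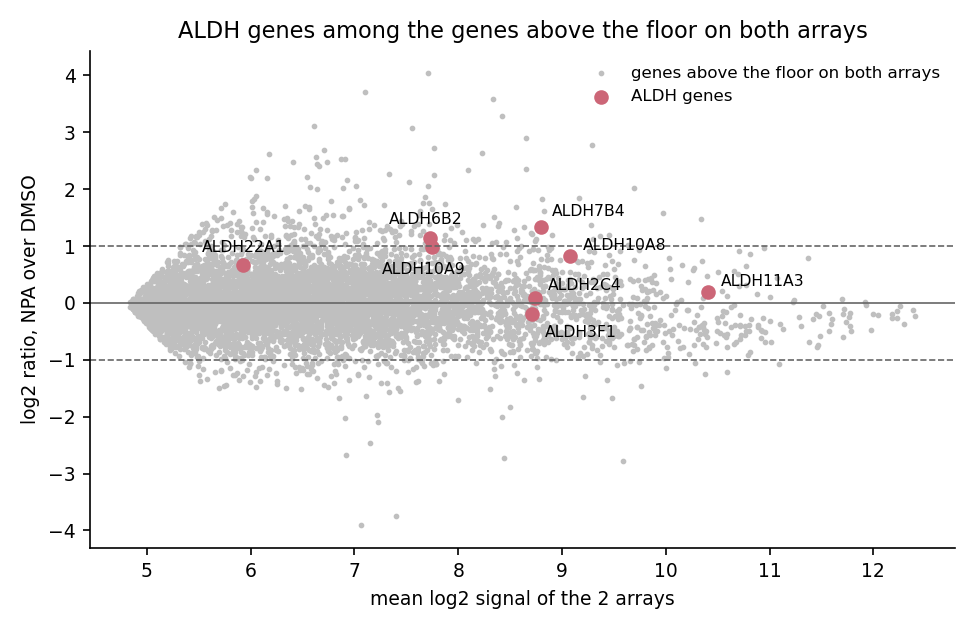
Log2 ratio of NPA over DMSO against mean log2 signal for the 6809 genes above the floor on both arrays (grey) and the 8 ALDH genes (red), with dashed lines at 2-fold. ALDH7B4 and ALDH6B2 lie above the upper line and ALDH10A9 just below it, inside a cloud whose log2 ratios have an SD of 0.54.

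Genes of the pathways in which these enzymes act, and of the abscisic acid and dehydration response, were then read from 9 lists of 131 loci. Of these loci, 31 had a named probe set and all 31 were measured. Of the 31, 7 were higher by 2-fold or more with NPA, 0 were lower by as much, and the shares over all measured genes are the 3.75% and 2.13% given above. The 7 were spread unevenly, as 4 came from the abscisic acid and dehydration list, a stress response and not a pathway of these enzymes. The lists of branched-chain amino acids and lysine, of polyamines, and of pyruvate and ethanol held 1 each. The lists were written by locus from general knowledge, but with earlier results of these arrays known, so these counts are a description. Most loci on them were not analysed here.

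Transcripts of branched-chain amino acid and lysine breakdown, the pathways of ALDH6B2 and of the family 7 enzyme in mammals, were mostly higher with NPA. Of 11 measured genes, 10 had a log2 ratio above 0, 7 were at least 1.5-fold higher, 1 at least 2-fold higher and 0 lower by either size, with a median log2 ratio of 0.65. The list held 19 loci in all. Over all measured genes, 47.4% had a log2 ratio above 0. At 1.5-fold, 11.2% of them were higher and 10.6% lower, and at 2-fold 3.75% and 2.13%. The count at 1.5-fold depended on the processing: it was 4 under quantile normalization and 1, LKR/SDH, when the floor was added to both signals. The lysine-ketoglutarate reductase/saccharopine dehydrogenase gene LKR/SDH (AT4G33150) opens lysine breakdown and makes aminoadipic semialdehyde, which the mammalian relative of ALDH7B4 oxidises. Its signal was 49.8 with DMSO and 136 with NPA, a 2.73-fold difference. AT4G20930 had 43.6 and 78.4, a log2 ratio of 0.85. The gene table gives no name for this locus, nor for AT5G09300 and AT2G26800, which had 0.46 and -0.26. Without these unnamed loci, 8 of 8 genes were above 0.

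Several of these genes encode the chain that passes electrons from mitochondrial dehydrogenases to respiration. The electron-transfer flavoprotein oxidoreductase gene ETFQO had a signal of 51.1 with DMSO and 84.3 with NPA, and the D-2-hydroxyglutarate dehydrogenase gene D2HGDH had 63.4 and 101, log2 ratios of 0.72 and 0.67. The flavoprotein subunit genes ETFALPHA and ETFBETA both had 0.65. The leucine breakdown genes IVD, MCCA and MCCB, for isovaleryl-CoA dehydrogenase and the subunits of methylcrotonyl-CoA carboxylase, had 0.64, 0.58 and 0.47. These 7 ratios lay between 0.47 and 0.72, at DMSO signals between 51.1 and 153. When the floor was added to both signals, the list's median was 0.47 and 10 of 11 genes were still above 0.

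Polyamine genes, which lead to the substrates of family 10, went both ways. The copper amine oxidase gene CuAO1, whose enzyme turns polyamines into aminoaldehydes, had a signal of 61.7 with DMSO and 174 with NPA, a 2.83-fold difference. SAMDC, for the decarboxylase that supplies spermidine and spermine synthesis, had 4043 and 3044, a log2 ratio of -0.41, which was -0.12 under quantile normalization and -0.07 under lowess centring. The loci AT5G15950, AT3G25570 and AT2G42490, unnamed in the gene table, had -0.75, 0.48 and -0.01. Of the 5 measured genes 1 was higher by 2-fold or more and 0 lower by as much, with a median of -0.01. Over all measured genes these shares were 3.75% and 2.13%.

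Among genes of small aldehydes, PDC2, for the pyruvate decarboxylase that makes acetaldehyde, had a signal of 53.5 with DMSO and 110 with NPA. This 2.06-fold difference was smaller than 2-fold under quantile normalization (0.98 as log2) and with the floors added as a pseudocount (0.76). The acetyl-CoA synthetase gene ACS, which activates acetate, had 153 and 256, a log2 ratio of 0.74. In proline metabolism, the ornithine aminotransferase gene DELTA-OAT had 91.2 and 153, a log2 ratio of 0.75, and the unnamed locus AT5G38710 had 0.34. The GABA shunt list was represented by AT1G08230 alone, also unnamed, at 0.21. The mitochondrial ALDH genes of these routes were not analysed.

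In the pathways of ALDH11A3 and ALDH2C4 few genes were measured. GAPC2, the phosphorylating cytosolic counterpart of ALDH11A3, had a signal of 3968 with DMSO and 3858 with NPA, a log2 ratio of -0.04 that turned to 0.24 under quantile normalization and 0.31 under lowess centring. HCT, a phenylpropanoid gene upstream of ALDH2C4, had 1481 and 1063, a log2 ratio of -0.48. CCR2, at the floor with DMSO, was at least 1.08-fold higher, and its log2 ratio was 1.12 with a 25th percentile floor and 2.67 without any. Of 10 other enzymes that convert aldehydes and reactive carbonyls, 2 were measured and 0 differed by 1.5-fold. Among all measured genes 11.2% were higher and 10.6% lower by this size, so this count does not set the 2 genes apart. The chloroplast alkenal/one oxidoreductase gene AOR had 1525 and 1134, a log2 ratio of -0.43, and the alkenal reductase gene AER had 92.4 and 80.3, a log2 ratio of -0.20, within the SD of the spike-ins. The ratios of the bright genes HCT and AOR were smaller under quantile normalization, at -0.27 and -0.20, and under lowess centring, at -0.25 and -0.20.

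Genes that respond to abscisic acid and dehydration, a response in which ALDH7B4 takes part, were higher with NPA in 5 of 5 measured cases. Of these, 4 were at least 2-fold higher, and the median log2 ratio was 1.64. Among all measured genes, 47.4% were above 0 and 3.75% at least 2-fold higher. The list held 28 loci, and most of them have no named probe set here. It was chosen with earlier results of these arrays known, so these counts are a description. COR15A, for a chloroplast protein of cold and drought protection, had a signal of 50.0 with DMSO and 288 with NPA, a 5.75-fold difference. The dehydrin gene COR47 had 292 and 632, a 2.17-fold difference, and the dehydrin gene LTI30, at the floor with DMSO, was at least 3.12-fold higher, with a log2 ratio of 0.73 under a 55th percentile floor. HIS1-3, a drought-induced linker histone, was 8.65-fold higher from a DMSO signal of 33.3, close to the floor, and 5.42-fold higher under a 55th percentile floor and 5.13-fold with the floors added as a pseudocount. COR15B had a log2 ratio of 0.84. COR47 and ALDH7B4 are both well above the floor on both arrays.

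**Figure D4:**
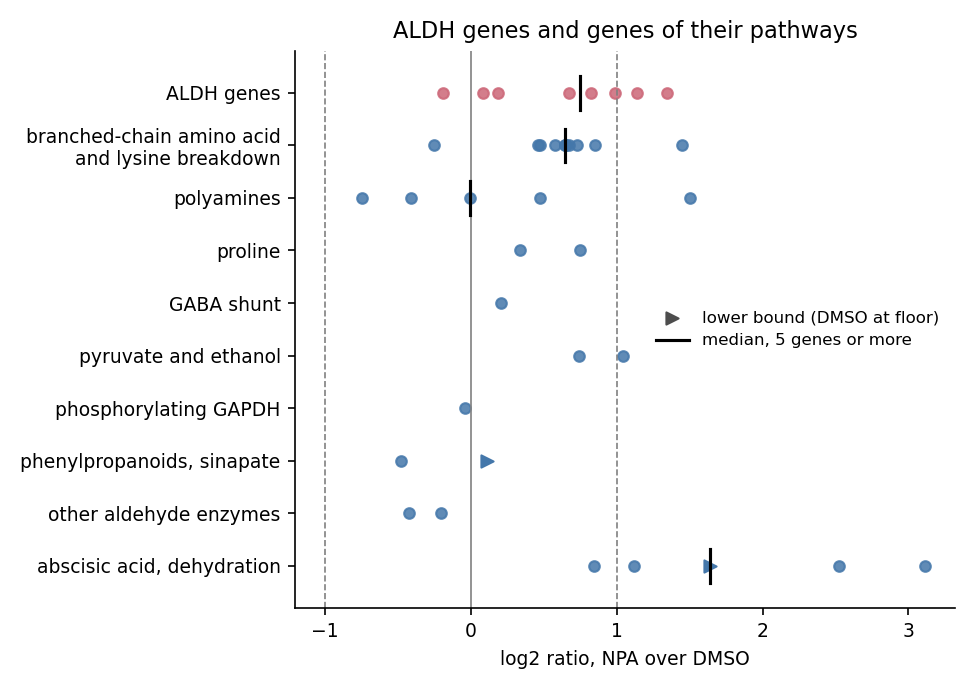
Log2 ratios of NPA over DMSO for the 8 ALDH genes (red) and the 31 measured genes of 9 pathway lists (blue), with 1 point per gene, triangles for lower bounds with DMSO at the floor, and bars for medians of lists with 5 genes or more. The medians are 0.75 for the ALDH genes, 0.65 for branched-chain amino acid and lysine breakdown, -0.01 for polyamines and 1.64 for the abscisic acid and dehydration list. The last was 1.12 under a 55th percentile floor and 1.78 under a 25th percentile floor.

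Leaf markers of photosynthesis were well above the floor in these shoots, and the 5 measured of 10 were lower with NPA, with log2 ratios from -0.77 for SBPASE to -0.13 for RCA and a summed signal of 23077 with DMSO and 18373 with NPA. This direction depended on the scaling: 3 of the 5 were above 0 under lowess centring and 2 under quantile normalization, with medians of 0.10 and -0.05 against -0.27. Of 4 root markers, PYK10 had signals of 609 and 425, EXPA18 had 36.8 and 28.3, and EXPA7 was at the floor on both arrays. The 4 flower and 4 seed markers have no named probe set here. The part of tissue makeup in the ALDH differences was not tested.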

How the data were processed

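The authors deposited a linear signal intensity for each probe set, made with MAS5 and GCOS (versions not given in the sources used here), per the submitters' processing notes. The mean after trimming 2% at each end was 100.0 on both arrays, so the arrays had been scaled alike before deposit. Of 22746 probe sets that are no controls, 13513 have 1 gene in the array's annotation, 503 several and 8730 are unnamed here. The TAIR10.1 gene table gave gene names, the link from list loci to genes, the number of ALDH symbols and the neighbours on the chromosome.

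Signals under an array's 40th percentile were set to it, and the log2 ratio of NPA over DMSO was taken. With 1 array at the floor a fold is a lower bound. With 1 array per group there is no test, and genes were counted at 2-fold and 1.5-fold. Every ALDH gene is named; from each list, the 4 measured genes furthest from a log2 ratio of 0 and any at 2-fold, with the others added after their values were seen. Members and lists were chosen with earlier results of these data known. The steps were tested on simulated arrays with added changes larger than those of the ALDH genes, placed in genes far above the floor. That test does not cover changes near 2-fold or changes in genes near the floor.

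For 52 genes with several probe sets above the floor, the log2 ratios of 1 gene spanned a median of 0.25. The number of arrays limits the precision, and detection calls were not used here. Alternatives were other scalings, floors, probe set choices and size rules. Tables were handled in pandas 2.3.3 and numpy 2.4.6, lowess in statsmodels 0.14.6, trimmed means in scipy 1.17.1 and figures in matplotlib 3.10.9, under Python 3.11.15.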

Additional observations from a re-analysis of the deposited data

How the results depend on the processing

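No paired analysis was possible because with 1 array per group there are no pairs to compare, and no array could be left out. Of 72 values of the 8 ALDH genes under 9 alternatives, 69 moved by less than the spike-in SD of 0.21 and 3 moved further: ALDH11A3 under quantile normalization and lowess centring, and ALDH22A1 with the floor added to both signals. Many of the 69 could not move, because every ALDH gene has 1 probe set and lies above the floor on both arrays. The probe set choices, the 25th percentile floor and no floor left all 8 unchanged by construction. The 55th percentile floor moved only ALDH22A1. No gene changed sign. The ALDH median stayed between 0.62 and 0.79. The count of 2 ALDH genes at 2-fold became 1 when the floor was added to both signals and 3 under median centring, where ALDH10A9 passed 2-fold. With other size rules it was by construction 5 at 1.5-fold and 0 at 3-fold. The count of 5 at 1.5-fold was 4 under a 55th percentile floor and when the floor was added, and 5 in the other 7 settings. Over all genes, higher and lower counts were 174 and 71 with the floor added, against 291 and 165, and 1047 and 1187 without a floor. A floor at the 25th percentile gave 421 and 297. Size rules of 1.5-fold and 3-fold gave 869 and 822, and 75 and 18. Restricting the count to genes above the floor on both arrays, an alternative chosen after seeing the data, gave 253 and 147. The floor also sets which genes count as measured. These were 7753 as reported and with the floor added, 10006 with a 25th percentile floor and 13013 without a floor. Beyond this change in the genes counted, the cause of the shifts with the floor was not tested.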

Other observations

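The following values were looked up after the results above were seen. Of 16 protein-coding genes next to an ALDH gene on the chromosome, 4 were measured and 0 reached 2-fold. Among all measured genes, 3.75% were higher and 2.13% lower by this size, so this count does not set the neighbours apart from other genes. AT1G54110, next to ALDH7B4, had signals of 56.9 with DMSO and 58.1 with NPA, and AT1G74910, next to ALDH10A8, had 267 and 192. AT2G24280, next to ALDH11A3, had a log2 ratio of 0.41, and AT3G24506, next to ALDH2C4, had -0.35.

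Grouping measured genes by the letters that open their symbol gave 26 families with at least 5 measured genes. The ALDH family had the highest median log2 ratio of these, 0.75, with 5 of 8 genes at least 1.5-fold higher. The SCPL serine carboxypeptidase-like genes followed with a median of 0.70 and 3 of 5, then the CYP cytochrome P450 genes with 0.58 and 6 of 12 and the ATG autophagy genes with 0.55 and 3 of 8. Over all measured genes, 11.2% were at least 1.5-fold higher. The ALDH genes were proposed with earlier results of these arrays known, so their place in this order is a description only. Symbols depend on the annotation, which leaves 8730 probe sets unnamed here, and families this small have no error on their medians.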
